A study of Mus musculus with 6 samples.

Results

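The genes of serine synthesis and the folate cycle were followed here in primary mouse muscle stem cells of a control and a Med23 knockout genotype. Med23 is one of the subunits of Mediator, through which transcription factors reach RNA polymerase II. The set holds 10 of the 32973 genes in the deposited table: Phgdh, Psat1 and Psph of serine synthesis, Shmt1 and Mthfd1 of the cytosolic folate cycle, Shmt2, Mthfd2 and Mthfd1l of the mitochondrial folate cycle, and the carriers Slc19a1 and Sfxn1. They were chosen by pathway and by symbol, with results of the comparison below already known. Their differences between the groups are therefore a description, and how many of them passed the test supports nothing beyond these genes. All 10 were found by symbol, and all 10 passed the filter on low values.

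Expression was measured by RNA-seq in 6 libraries of sorted skeletal muscle stem cells after 3 days in culture, grown on collagen in F10 medium that contained serum and bFGF, a fibroblast growth factor. Control cells had the genotype Med23flox/flox (Ctrl, 3 libraries), and knockout cells the genotype Med23flox/flox::Pax7CreERT2 (Med23KO, 3 libraries). Both groups carried the loxP-flanked alleles and were labelled as untreated. The Cre recombinase was present in the knockout group alone, as a tamoxifen-dependent form driven from Pax7, the gene that marks muscle stem cells. Effects of Cre and of Med23 loss cannot be told apart, and neither the age of the animals nor any use of tamoxifen is given in the sources used here. The labels do not say that the libraries of a group stem from different animals or cultures. The p-values therefore measure only how far these libraries spread, which may be technical.

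Serine is made from the glycolytic intermediate 3-phosphoglycerate in 3 steps. Phgdh oxidises it, Psat1 adds an amino group taken from glutamate, and Psph removes the phosphate. Serine hydroxymethyltransferases then pass a carbon of serine to tetrahydrofolate, which leaves glycine. Shmt1 does so in the cytosol and Shmt2 in the mitochondrion. The mitochondrial enzymes Mthfd2 and Mthfd1l carry the folate-bound carbon on to formate, which leaves the organelle, and the cytosolic enzyme Mthfd1 binds it to folate again for the synthesis of purines and thymidylate. Slc19a1 is the reduced folate carrier of the cell surface, and Sfxn1 brings serine into mitochondria. Proliferating cells are known for a high demand on this pathway.

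Expression is given as FPKM, which divides fragment numbers by transcript length and by library size, so that levels of different genes can be set side by side, and the depth per library is unknown. The sum of FPKM was 697886 to 746973 in controls and 599738 to 675095 in knockouts. Without the noncoding RNA gene Rmrp these sums overlapped, at 468565 to 507383 and 426697 to 476046. Med23 itself had 10.4, 11.7 and 10.2 FPKM in Ctrl replicates 1, 2 and 3 and 5.10, 5.86 and 4.23 FPKM in Med23KO replicates 1, 2 and 3, and the knockout mean was 47.1% of the control mean (limma adjusted p = 0.0197). The libraries labelled as knockout thus still held Med23 RNA; the cause was not tested, and whether the counted fragments lie outside the deleted part is not given in the sources used here. The call stood without 1 library only when Med23KO replicate 3 was left out (adjusted p up to 0.108). Of 12336 genes tested, the knockout had 184 higher and 175 lower, against 363 and 205 with libraries scaled to equal medians, 298 and 201 after quantile normalization, and 489 and 157 with libraries scaled to a fixed sum without Rmrp. The test was limma, adjusted by Benjamini-Hochberg, with calls at an adjusted p under 0.05. Of 8 markers of muscle stem cells and myoblasts, 7 were tested and 0 passed. At an unadjusted limma p under 0.05, 1 was lower and 1 higher (10.9% and 8.84% of all tested genes). The summed level of the 8 was 1127 to 1807 FPKM in controls and 975 to 1726 FPKM in knockouts. Pax7 had 32.4 to 60.3 and Myod1 551 to 1170 FPKM over the 6 libraries, while Chrdl2 was at 0.131 to 0.373 FPKM. Itga7 stood at 59.0% of the control level without overlap (limma adjusted p = 0.0515) and Cdh15 at 175% with overlap (limma adjusted p = 0.168).

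All 10 genes were lower on average in the knockout, and in each of them the 3 knockout values lay below the 3 control values. This was so in 14.7% of all tested genes. The knockout mean ran from 45.7% of the control mean for Phgdh to 90.4% for Mthfd2. The median log2 difference over the 10 genes was -0.50, against -0.03 over all tested genes. Every difference is given on the log2(FPKM + 1) scale, which makes changes of low genes look smaller. Phgdh, Shmt1, Shmt2, Slc19a1 and Sfxn1 passed the test, 5 of 10 lower and 0 higher, where 1.42% of all tested genes were called lower and 1.49% higher. At an unadjusted limma p under 0.05 there were 9 lower and 0 higher, where 10.9% of all tested genes were lower and 8.84% higher. By the q-values of the authors' deposited table, 8 of the 10 were called lower and 0 higher, where 7.27% of the tested genes were called lower and 8.34% higher. Psph and Mthfd2 were the 2 genes that the authors' deposited table did not call.

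**Figure D1:**
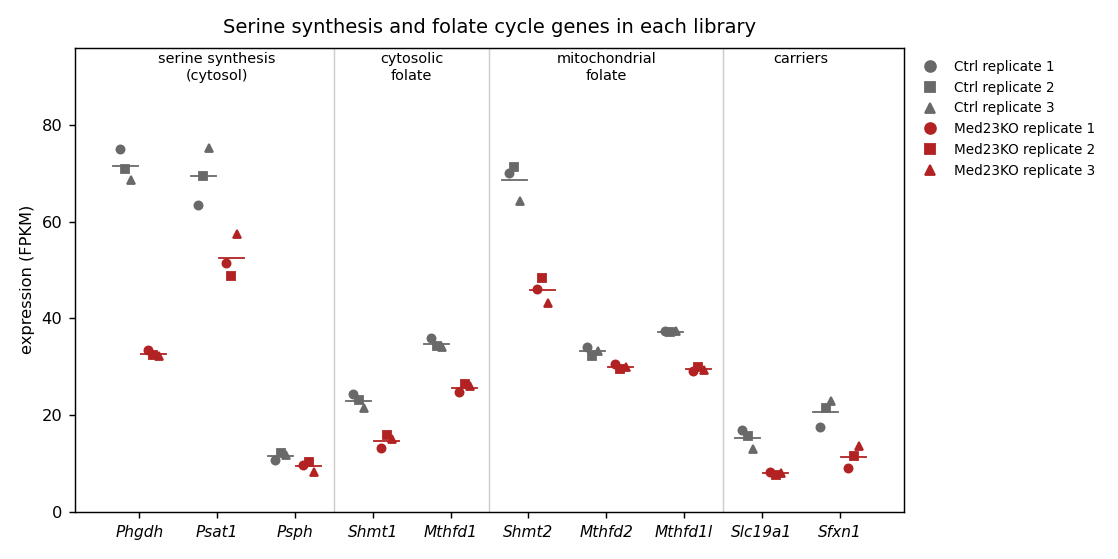
FPKM (vertical axis, linear, from 0) of each of the 10 genes in each library, grouped by their place in the pathway, with controls in grey, knockouts in red, a symbol for each replicate and a line at each group mean. In every gene the red points lie below the grey ones, with the widest gap in Phgdh (33.5 FPKM at most in knockouts, 68.7 at least in controls) and a narrow one in Psph.

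The libraries of a group were alike across the set. Relative to the control mean of each gene, the median of the 10 genes was 0.03, 0.01 and -0.01 (log2) in Ctrl replicates 1, 2 and 3. It was -0.52, -0.50 and -0.51 in Med23KO replicates 1, 2 and 3. Single genes varied more than this median: Sfxn1 lay between -1.08 and -0.57 in the knockout libraries and between -0.21 and 0.16 in the control libraries. The median of the set was thus nearly the same in the 3 knockout libraries.

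The sequence before the start site is shown for 4 genes that span the range of the differences, Phgdh (the largest), Shmt2, Psat1 and Mthfd2 (the smallest). Each window is the 250 bases before the RefSeq start on GRCm38.p6 (mm10), written 5′ to 3′ on the strand of the gene. Capitals mark matches to any of 5 motifs searched on both strands: TGATGNAA (core of the element bound by ATF4, the factor of the amino acid response), CACGTG (the E-box bound by MYC among others), TGACNNNGC (core of the antioxidant response element), CCGGAAG (core of ETS factor sites) and CCAAT (the CCAAT box bound by NF-Y). The CCAAT box was added after the sequences had been seen. The windows are chr3:98339970-98340219 for Phgdh, chr19:15925060-15925309 for Psat1, chr10:127522445-127522694 for Shmt2 and chr6:83317605-83317854 for Mthfd2, all on the minus strand. The Psat1 and Mthfd2 windows lie inside the GENCODE spans of their genes, which begin farther upstream. Exons annotated for Phgdh in GENCODE cover 21 bases of its window.
Phgdh: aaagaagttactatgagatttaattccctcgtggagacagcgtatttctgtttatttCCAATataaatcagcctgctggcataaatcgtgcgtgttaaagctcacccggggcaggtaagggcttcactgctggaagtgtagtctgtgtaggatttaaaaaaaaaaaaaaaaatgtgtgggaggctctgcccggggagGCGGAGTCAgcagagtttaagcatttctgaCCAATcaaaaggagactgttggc
Psat1: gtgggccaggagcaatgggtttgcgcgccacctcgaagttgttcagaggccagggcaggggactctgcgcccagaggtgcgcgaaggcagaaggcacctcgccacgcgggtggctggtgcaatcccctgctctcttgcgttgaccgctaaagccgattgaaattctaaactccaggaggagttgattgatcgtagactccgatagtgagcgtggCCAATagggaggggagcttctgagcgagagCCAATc
Shmt2: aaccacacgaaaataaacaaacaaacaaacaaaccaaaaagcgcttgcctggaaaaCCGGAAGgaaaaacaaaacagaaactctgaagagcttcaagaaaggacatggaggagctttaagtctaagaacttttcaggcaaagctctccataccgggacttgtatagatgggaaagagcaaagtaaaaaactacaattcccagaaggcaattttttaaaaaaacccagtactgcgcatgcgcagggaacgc
Mthfd2: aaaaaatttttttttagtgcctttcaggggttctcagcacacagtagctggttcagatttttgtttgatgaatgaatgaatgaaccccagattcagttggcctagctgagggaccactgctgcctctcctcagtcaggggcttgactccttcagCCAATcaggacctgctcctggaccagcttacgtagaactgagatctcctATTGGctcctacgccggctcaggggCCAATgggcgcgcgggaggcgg

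The CCAAT box was found both in the gene with the largest and in the gene with the smallest difference. Phgdh had it at 193 and 23 bases before the start and Mthfd2 at 96, 47 and 22 bases. Psat1 had it at 36 and 6 bases, and the Shmt2 window held none but had CCGGAAG at 194 bases. Over all 12 windows of the 10 genes (Psat1 and Slc19a1 have 2 starts each), CCAAT or its complement stood in 6, those of Phgdh, Psat1, Psph, Shmt1, Mthfd1 and Mthfd2, and it stood in 33.8% of 32851 windows of the same length. TGACNNNGC stood in 2 of the 12, those of Phgdh and Slc19a1 (10.2% of all windows), and CCGGAAG in that of Shmt2 alone (6.91%). TGATGNAA (3.45% of all windows) and CACGTG (6.02%) stood in 0 of the 12, which says only that these letters are not in these windows. The windows held between 40.8% and 67.2% G and C, with a median of 59.4% against 52.4% over all windows. GENCODE exons of the gene itself covered 196 bases of the Psph window, 55 of the first Slc19a1 window and 49 of the Shmt1 window. A match is a description of the sequence and no evidence of binding.

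In serine synthesis, the first enzyme of the pathway differed most. Phgdh (ENSMUSG00000053398.11, mm10 chromosome 3, positions 98313170 to 98339990, minus strand, 12 exons) had 75.1, 71.0 and 68.7 FPKM in Ctrl replicates 1, 2 and 3 and 33.5, 32.5 and 32.2 FPKM in Med23KO replicates 1, 2 and 3. Every knockout library was thus below every control library by at least 35.2 FPKM. The means were 71.6 ± 3.21 and 32.7 ± 0.670 FPKM (SD, n = 3 each), a log2 difference of -1.11 (SE 0.0848, limma adjusted p = 0.00356). Of the 5 calls in the set, this was the one that held without any 1 of the 6 libraries (adjusted p up to 0.0428).

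Phgdh has many processed copies in the genome. Of its transcript, 17 processed pseudogenes at other loci matched at least 200 bases at 90.4% to 98.7% identity, and 0 of the 17 matched a row of the table by symbol. How reads shared with these copies were assigned is not given in the sources used here, so its level is uncertain to that extent. Psat1 and Shmt2 had 1 such copy each, at 91.0% and 90.1% identity, and the other 7 genes had none.

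Psat1, the aminotransferase (ENSMUSG00000024640.9, chromosome 19, positions 15904678 to 15947337, minus strand, 9 exons), had 63.5, 69.4 and 75.2 FPKM in controls and 51.4, 48.8 and 57.4 FPKM in knockouts, replicates 1, 2 and 3 in this order. The groups did not overlap, but both spread more widely than those of Phgdh. The means were 69.4 ± 5.89 and 52.5 ± 4.40 FPKM (SD, n = 3), a log2 difference of -0.39 (SE 0.106, limma adjusted p = 0.0963). The difference passed the threshold when Med23KO replicate 3 was left out (adjusted p = 0.0411) and with library weights (adjusted p = 0.0226). Over all tested genes, these settings raised the calls from 175 lower and 184 higher to 395 and 749 and to 850 and 850. The adjusted p was 0.182 to 0.280 under the other scalings and up to 0.350 without another library. The authors' deposited table called Psat1 lower (q = 0.00754).

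Psph, the phosphatase (ENSMUSG00000029446.14, chromosome 5, positions 129765558 to 129787449, minus strand, 8 exons), had 10.8, 12.2 and 11.7 FPKM in controls and 9.70, 10.3 and 8.23 FPKM in knockouts. The highest knockout and the lowest control library were 0.457 FPKM apart. The log2 difference was -0.28 (SE 0.118, 95% interval -0.55 to -0.00, limma adjusted p = 0.250). Of this gene, 452 of the 1733 bases of the Psph transcript are also covered, on the other strand, by Cct6a, which had 114 to 165 FPKM. Whether reads were counted by strand is not given in the sources used here, and the part of Cct6a reads in the Psph value was not tested.

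The difference was thus uneven along these 3 steps. Within a library, the ratio of Phgdh to Psat1 was 1.18, 1.02 and 0.913 in controls and 0.651, 0.667 and 0.561 in knockouts. The ratio of Phgdh to Psph was 6.98, 5.80 and 5.86 in controls and 3.45, 3.16 and 3.91 in knockouts. Neither ratio overlapped between the groups. The 3 genes together summed to 153 ± 3.21 FPKM in the control and 94.7 ± 3.09 FPKM in the knockout group (SD, n = 3), or 62.1% of the control level.

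In the cytosolic folate cycle, Shmt1 (ENSMUSG00000020534.14, chromosome 11, positions 60788104 to 60811718, minus strand, 12 exons) had 24.4, 23.1 and 21.4 FPKM in controls and 13.2, 15.9 and 15.0 FPKM in knockouts. Control and knockout values were at least 5.56 FPKM apart. The means were 23.0 ± 1.51 and 14.7 ± 1.37 FPKM (SD, n = 3), a log2 difference of -0.62 (SE 0.109, limma adjusted p = 0.0331). Without 1 library the call stood only when Med23KO replicate 3 was left out, and the adjusted p ran from 0.0217 to 0.161. It was also missed with no filter on low values (adjusted p = 0.0589). Of its exons, 184 bases lie within Smcr8 on the other strand, which had 17.8 to 24.0 FPKM, and the part of Smcr8 reads was not tested.

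Mthfd1, whose protein joins 3 activities that interconvert folate-bound carbon units (ENSMUSG00000021048.7, chromosome 12, positions 76255298 to 76319803, plus strand, 28 exons), had 36.0, 34.3 and 34.1 FPKM in controls and 24.8, 26.4 and 26.1 FPKM in knockouts. The replicates were close, with no overlap. The log2 difference of -0.42 (SE 0.0864) lay just outside the threshold (limma adjusted p = 0.0501). It lay inside with a pseudocount of 5 FPKM (adjusted p = 0.0496), a filter at a mean of 5 FPKM (adjusted p = 0.0450), library weights (adjusted p = 0.0138) or without Med23KO replicate 3 (adjusted p = 0.0378). The adjusted p was 0.0651 to 0.108 under the other scalings and up to 0.206 without another library. The 2 cytosolic genes together summed to 57.8 ± 2.46 and 40.4 ± 2.21 FPKM (SD, n = 3), or 69.9% of the control level.

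In the mitochondrial folate cycle, Shmt2 (ENSMUSG00000025403.5, chromosome 10, positions 127517123 to 127522444, minus strand, 12 exons) had 70.1, 71.3 and 64.3 FPKM in controls and 46.0, 48.3 and 43.1 FPKM in knockouts. All knockout libraries were at least 16.1 FPKM below the controls. The means were 68.6 ± 3.73 and 45.8 ± 2.58 FPKM (SD, n = 3), a log2 difference of -0.57 (SE 0.0919, limma adjusted p = 0.0271). Left-out libraries moved the adjusted p between 0.0194 and 0.145, and the call stood only without Med23KO replicate 3.

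Mthfd2, the mitochondrial dehydrogenase and cyclohydrolase (ENSMUSG00000005667.8, chromosome 6, positions 83305691 to 83325908, minus strand, 8 exons), differed least of the 10 genes. It had 34.1, 32.3 and 33.2 FPKM in controls and 30.6, 29.5 and 30.0 FPKM in knockouts. The groups were 1.69 FPKM apart at their closest. The log2 difference was -0.14 (SE 0.0843, 95% interval -0.34 to 0.06, limma adjusted p = 0.417). Over all alternatives it stayed between -0.16 and -0.05 and never passed the threshold, nor did it in the authors' deposited table (q = 0.562).

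Mthfd1l, which makes formate from the folate-bound carbon (ENSMUSG00000040675.17, chromosome 10, positions 3973118 to 4167081, plus strand, 28 exons), had 37.4, 37.1 and 37.4 FPKM in controls and 29.1, 29.9 and 29.4 FPKM in knockouts. Relative to its mean it spread little, with SDs of 0.195 and 0.407 FPKM (n = 3 each). The log2 difference was -0.33 (SE 0.0822, limma adjusted p = 0.0803, or 0.0270 with library weights). Other scalings gave an adjusted p of 0.117 to 0.218, and leaving out 1 library gave 0.0748 to 0.282. The authors' deposited table called Mthfd1l lower (q = 0.0349). The 3 mitochondrial genes together summed to 139 ± 3.65 FPKM in the control and 105 ± 2.61 FPKM in the knockout group (SD, n = 3), or 75.7% of the control level.

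Both carriers passed the test. Slc19a1 (ENSMUSG00000001436.15, chromosome 10, positions 77032241 to 77061002, plus strand, 6 exons) had 16.9, 15.6 and 13.0 FPKM in controls and 8.27, 7.71 and 7.96 FPKM in knockouts. The knockout libraries lay close together and below all controls. The span of Slc19a1 overlaps that of Col18a1 on the other strand, which had 30.4 to 98.9 FPKM. Of the 6 exons, 0 bases lie within Col18a1, and the part of Col18a1 reads was not tested. The means were 15.2 ± 1.98 and 7.98 ± 0.281 FPKM (SD, n = 3), or 52.5% of the control level, with a log2 difference of -0.84 (SE 0.120, limma adjusted p = 0.0199). The call stood without Ctrl replicate 3 or Med23KO replicate 3 and was lost without any of the other 4 libraries (adjusted p up to 0.132).

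Sfxn1 (ENSMUSG00000021474.9, chromosome 13, positions 54071869 to 54108342, plus strand, 11 exons) had 17.6, 21.4 and 23.0 FPKM in controls and 9.16, 11.6 and 13.6 FPKM in knockouts. Relative to its mean it spread widely, and the groups still did not overlap. The means were 20.7 ± 2.81 and 11.4 ± 2.20 FPKM (SD, n = 3), a log2 difference of -0.81 (SE 0.163, limma adjusted p = 0.0473). This call was lost under every other scaling tried (adjusted p of 0.0669 after quantile normalization, 0.0687 with equal medians and 0.0836 with a fixed sum without Rmrp), with no filter (adjusted p = 0.0904), without the mean-variance trend (adjusted p = 0.0560) and without any library other than Med23KO replicate 3 (adjusted p up to 0.198).

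**Figure D2:**
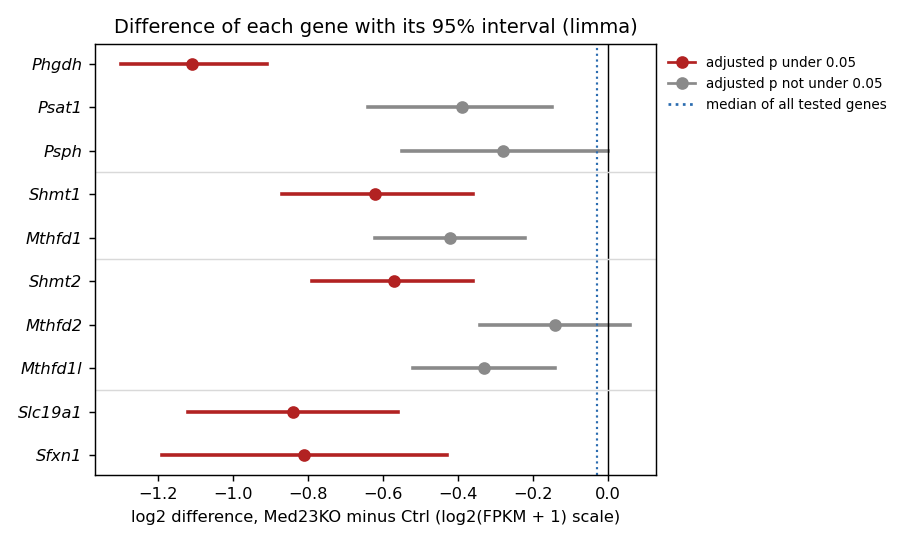
Log2 difference between knockout and control libraries (horizontal axis, log2(FPKM + 1) scale) of each gene with its 95% interval from limma, red where the adjusted p was under 0.05. Phgdh stands at -1.11, the 2 carriers follow at -0.84 and -0.81, and the intervals of the other genes reach from -0.87 (Shmt1) to 0.06 (Mthfd2); the dotted line marks the median of all tested genes, -0.03.

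The order of the levels differed between the groups. In controls, Phgdh (71.6 FPKM), Psat1 (69.4 FPKM) and Shmt2 (68.6 FPKM) were the highest and did not differ from each other beyond their spread. Mthfd1l, Mthfd1 and Mthfd2 followed at 37.3, 34.8 and 33.2 FPKM, then Shmt1 at 23.0 and Sfxn1 at 20.7 FPKM, which overlapped, Slc19a1 at 15.2 FPKM and Psph at 11.6 FPKM. In knockouts, Psat1 (52.5 FPKM) and Shmt2 (45.8 FPKM) were highest. Phgdh stood in the third place at 32.7 FPKM, above Mthfd2 at 30.0 FPKM and Mthfd1l at 29.5 FPKM, which overlapped, and Slc19a1 was the lowest at 7.98 FPKM, overlapping with Psph. The ratio of Phgdh to Mthfd2 was 2.20, 2.20 and 2.07 in controls and 1.09, 1.10 and 1.07 in knockouts.

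The ratio between the hydroxymethyltransferases of the compartments overlapped between the groups, while other ratios did not. Within a library, the ratio of mitochondrial Shmt2 to cytosolic Shmt1 was 2.87, 3.08 and 3.00 in controls and 3.49, 3.04 and 2.88 in knockouts. The ratio of mitochondrial Mthfd2 to cytosolic Mthfd1 was 0.947, 0.942 and 0.972 in controls and 1.24, 1.12 and 1.15 in knockouts. Mthfd2 was also higher relative to Shmt2, which acts before it in the same compartment, at 0.487, 0.453 and 0.516 in controls and 0.667, 0.611 and 0.695 in knockouts. The ratio of Mthfd1l to Mthfd1 was 1.04, 1.08 and 1.09 in controls and 1.17, 1.13 and 1.13 in knockouts. The summed mitochondrial to the summed cytosolic level was 2.34, 2.45 and 2.43 in controls and 2.79, 2.55 and 2.50 in knockouts. Apart from Shmt2 to Shmt1, these ratios did not overlap between the groups. They rest on the same values as the differences above and were not tested.

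**Figure D3:**
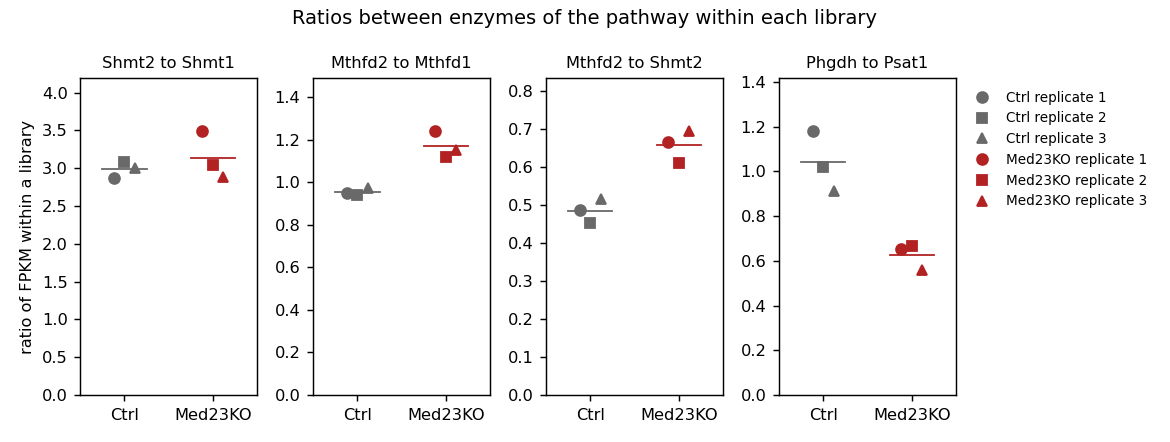
Ratio of FPKM between 2 genes within a library (vertical axes, linear, from 0), with controls in grey, knockouts in red, a symbol for each replicate and a line at each group mean. Shmt2 to Shmt1 overlaps between the groups near 3, Mthfd2 to Mthfd1 and Mthfd2 to Shmt2 are higher in every knockout library, and Phgdh to Psat1 is lower in each (0.561 to 0.667 against 0.913 to 1.18).

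Other genes of the pathway were followed in 4 lists of 42 genes, all with a row in the table, of which 30 were tested. Of the 30, 2 fell and 0 rose (1.42% and 1.49% of all tested genes). The log2 difference lay below 0 in 21 and above it in 9, and its median was -0.15. Of all 12336 tested genes, 6770 lay below 0 and 5566 above it. At an unadjusted limma p under 0.05 there were 8 lower and 0 higher of the 30 (10.9% and 8.84% of all tested genes). The authors' deposited q-values gave 8 lower and 1 higher (7.27% and 8.34% of all tested genes). In 11 of the 30 the knockout values lay below all control values, as in 14.7% of all tested genes. Both called genes are in the list of other cytosolic and nuclear folate genes. Fpgs, which adds the glutamate tail that keeps folates in the cell, fell from 13.1 ± 0.981 to 8.27 ± 0.468 FPKM (log2 difference -0.60, SE 0.106, limma adjusted p = 0.0333). Atic, which uses formyl folate in the last steps of purine synthesis, fell from 91.3 ± 4.06 to 66.6 ± 4.36 FPKM (SD, n = 3; log2 difference -0.45, SE 0.0909, limma adjusted p = 0.0480). Either call was lost without any 1 library other than Med23KO replicate 3, with adjusted p up to 0.171 for Fpgs and 0.223 for Atic, and with no filter on low values (0.0631 and 0.0636). The Atic call was also lost under every other scaling tried (limma adjusted p of 0.0737 after quantile normalization, 0.0923 with equal medians and 0.143 with a fixed sum without Rmrp) and without the mean-variance trend (0.0743).

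Of 8 tested genes in that list, 4 had knockout values below all controls (14.7% of all tested genes), and the median was -0.28. Gart, the other folate-using gene of purine synthesis, had 44.5 ± 1.60 and 32.5 ± 3.97 FPKM (limma adjusted p = 0.0778). Tyms, the thymidylate synthase, had 16.2 ± 1.87 and 13.2 ± 1.27 FPKM with overlapping groups (SD, n = 3; limma adjusted p = 0.276). Aldh1l1 and Ftcd were listed near or at 0.

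Among the 6 tested genes of mitochondrial folate and glycine cleavage, 0 passed, and the median was -0.07. At an unadjusted limma p under 0.05, 2 were lower and 0 higher (10.9% and 8.84% of all tested genes). Gcsh, the carrier protein of the glycine cleavage system, had 32.2 ± 2.96 and 22.6 ± 3.65 FPKM (limma adjusted p = 0.103), while Gldc, the decarboxylase of the same system, was below 0.25 FPKM in all libraries. Aldh1l2, which oxidises formyl folate, had 2.95 ± 0.668 and 1.82 ± 0.177 FPKM (SD, n = 3; limma adjusted p = 0.155). Mthfd2l, the close relative of Mthfd2, had 4.63, 4.08 and 4.18 FPKM in controls and 4.17, 6.26 and 4.89 FPKM in knockouts, well under Mthfd2 in every library. The groups overlapped, with a log2 difference of 0.19 (SE 0.151, 95% interval -0.16 to 0.54).

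Of 10 other tested carriers, 0 passed, and the median was -0.13. At an unadjusted limma p under 0.05, 2 were lower and 0 higher (10.9% and 8.84% of all tested genes). Slc1a5, a neutral amino acid transporter that also takes serine, had 54.5 ± 6.49 and 36.0 ± 6.02 FPKM (limma adjusted p = 0.0790, or 0.0442 with equal medians and 0.0131 with library weights). It missed the threshold after quantile normalization (adjusted p = 0.0655), with a fixed sum without Rmrp (0.0635) and without any 1 library (up to 0.282). Slc38a1 had 38.1 ± 2.76 and 30.7 ± 2.86 FPKM (limma adjusted p = 0.176). Slc25a32, the mitochondrial folate carrier, had 18.2 ± 3.47 and 13.4 ± 2.25 FPKM with overlapping groups (SD, n = 3; limma adjusted p = 0.255). In the methionine cycle and transsulfuration, 0 of 6 tested genes passed or had an unadjusted limma p under 0.05, and the authors' deposited table called 0. Mtrr had 9.61 ± 0.409 and 8.17 ± 0.665 FPKM, Ahcy 69.9 ± 3.45 and 62.7 ± 4.39 FPKM, and Mat2a 157 ± 22.5 and 141 ± 15.2 FPKM (SD, n = 3), with limma adjusted p-values of 0.330, 0.425 and 0.595.

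**Figure D4:**
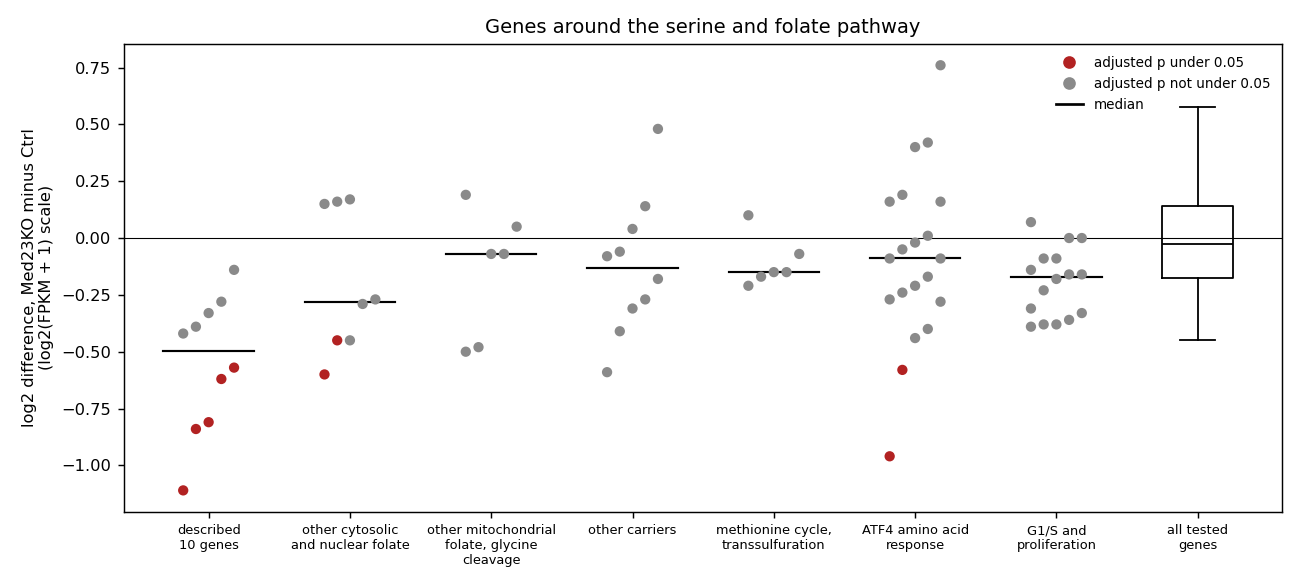
Log2 difference between knockout and control (vertical axis, log2(FPKM + 1) scale) of each tested gene in 7 groups of genes, red where the adjusted p was under 0.05, with a line at each median; the box at the right spans percentiles 25 to 75 of all 12336 tested genes and its whiskers percentiles 5 to 95. The 10 genes described here have a median of -0.50, the lists around them medians between -0.28 and -0.07, and the box spans -0.18 to 0.14 with whiskers from -0.45 to 0.58.

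Regulators known to act on this pathway differed unequally. ATF4 induces serine synthesis genes when amino acids are short. Its gene Atf4 had 153, 147 and 142 FPKM in controls and 137, 127 and 127 FPKM in knockouts, without overlap but with a log2 difference of -0.17 (SE 0.0835, 95% interval -0.37 to 0.02, limma adjusted p = 0.317). Of 20 tested genes of the ATF4 amino acid response, 2 fell and 0 rose (1.42% and 1.49% of all tested genes), and the median was -0.09. At an unadjusted limma p under 0.05, 4 were lower and 2 higher (10.9% and 8.84% of all tested genes). The falls were in Stc2, a secreted glycoprotein gene (3.89 ± 0.309 to 1.52 ± 0.332 FPKM, limma adjusted p = 0.0233), and Aldh18a1, which makes the precursor of proline (19.9 ± 0.451 to 13.0 ± 1.10 FPKM, limma adjusted p = 0.0317). Vldlr, a lipoprotein receptor gene, had 2.10 ± 0.299 and 4.35 ± 1.23 FPKM (SD, n = 3; limma adjusted p = 0.0874). Without any 1 library other than Med23KO replicate 3 both falls missed the threshold, with adjusted p up to 0.129 for Stc2 and 0.171 for Aldh18a1, as they did with no filter (0.0584 and 0.0546). The Aldh18a1 call was also lost with a fixed sum without Rmrp (0.0533).

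MYC is a growth factor-induced activator of folate and nucleotide genes. Myc had 45.1, 37.8 and 33.4 FPKM in controls and 23.5, 21.5 and 16.3 FPKM in knockouts, a fall to 52.7% of the control level (log2 difference -0.90, SE 0.164, limma adjusted p = 0.0368). This call, too, stood without 1 library only when Med23KO replicate 3 was left out (adjusted p up to 0.162), and it was lost with no filter (adjusted p = 0.0761). Nfe2l2, the NRF2 gene, had 78.3 ± 2.05 and 86.0 ± 7.16 FPKM with overlapping groups (SD, n = 3; limma adjusted p = 0.514).

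Marker lists of other cell states and types were also followed. For comparison, limma called 1.42% of all 12336 tested genes lower and 1.49% higher. The shares were 10.9% and 8.84% at an unadjusted limma p under 0.05, and 7.27% and 8.34% by the authors' q-values. Without overlap between the groups, 1813 of the 12336 genes were lower and 1233 higher. Of 16 G1/S and proliferation genes, 0 passed the test, 6 were lower and 0 higher at an unadjusted limma p under 0.05, 5 were called lower in the authors' deposited table, and the median was -0.17. Of the 16, 13 lay below 0 and 8 were lower without overlap, among them 6 genes of the replicative helicase from Mcm6 (76.1% of the control level, limma adjusted p = 0.0658) to Mcm4 (88.1%, limma adjusted p = 0.342). Mki67, a marker of cycling cells, had 86.3 ± 8.91 and 86.1 ± 2.45 FPKM (SD, n = 3). Of 7 tested genes of differentiating muscle, 2 rose (Mymx, for a fusion protein, and Mef2c, for a transcription factor) and all 7 lay above 0, with a median of 1.08, 6 higher and 0 lower at an unadjusted limma p under 0.05, 6 higher in the authors' deposited table, 6 higher without overlap, and a summed level of 47.7 to 105 FPKM in controls and 163 to 177 FPKM in knockouts. Fibroblast and fibro-adipogenic markers summed to 179 to 235 FPKM in controls and 234 to 358 FPKM in knockouts. Most of this was Col3a1, at 138 to 182 FPKM in controls and 183 to 286 FPKM in knockouts. Pi16 and Dpt were below 0.3 FPKM in all libraries. Of the 8 tested markers, 0 passed limma's threshold, with 3 higher and 0 lower at an unadjusted limma p under 0.05. The authors' deposited table called 4 of these markers higher. Dcn, one of them, had 6.14 ± 1.02 and 9.47 ± 0.850 FPKM (SD, n = 3). Immune markers summed to 12.4 to 25.1 FPKM in controls and 12.2 to 38.2 FPKM in knockouts, with Ptprc at 0 to 0.0896 FPKM. Most of this was Lyz2, at 10.5 to 22.3 FPKM in controls and 9.40 to 35.0 FPKM in knockouts. Endothelial markers summed to 5.26 to 10.3 and 4.31 to 7.08 FPKM, with Pecam1 between 1.10 and 2.13 FPKM. The part of these differences in the levels of the 10 genes was not tested, and in bulk RNA fewer cells of a type and less RNA per cell cannot be told apart.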

How the data were processed

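Poly(A) RNA was made into strand-specific libraries, per the labels' protocols. Per the submitters' processing notes, reads went through FastQC, cutadapt, STAR and Cuffdiff on mm10. No version, annotation or strand setting is given in the sources used here. The authors deposited FPKM per library and Cuffdiff p-values and q-values per gene. The q-values served only for comparison. Of 12368 rows with an Ensembl identifier alone, 12316 matched a symbol, and 27 symbols turned into dates stay unnamed. No count model was applied, since FPKM hold no counts. Depth per library is unknown: at most 20.0% of the low genes of a pair of libraries shared 1 ratio (tolerance 0.03, log2).

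Values were transformed to log2(FPKM + 1), and the 12336 genes whose mean reached 1 FPKM were tested with limma 3.58.1 in R 4.3.3 (mean-variance trend, genotype only, two-sided, Benjamini-Hochberg over all tested genes, threshold 0.05). The script was tested on simulated data. Intervals are at 95%. Members and lists were chosen with earlier results of these data known. The text names all 10 members, Med23, the called genes and up to 3 genes with the smallest adjusted p of each pathway list, and 14 genes named whatever their values (1 of these is not reported here); Mymx, Mef2c, Mcm4, Mcm6, Itga7, Cdh15, Chrdl2, Pi16, Dpt, Gldc, Aldh1l1 and Ftcd were named after their values were seen. Coordinates are from GENCODE vM21, promoter sequences from RefSeq (GRCm38.p6), and pseudogene copies from blastn 2.17.0 over GENCODE transcripts (at least 90% identity over 200 bases). Alternatives covered pseudocount, filter, scaling, variance model, library weights, a replicate block, each library left out and the authors' q-values.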

Additional observations from a re-analysis of the deposited data

How the results depend on the processing

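Since every knockout value lay below every control value in the 10 genes, only another scaling could turn a direction, and under the 3 scalings tried all 10 stayed below 0. The 5 calls became 3 with no filter on low values, 8 with library weights, 8 with the authors' q-values, 7 without Med23KO replicate 3, and 1 to 2 without any 1 of the other 5 libraries. Over all genes, 175 lower and 184 higher calls became 84 and 73 with no filter, 850 and 850 with library weights (whose estimation stopped before full convergence), and 924 and 1130 with the authors' q-values. Calls of rises were 298 after quantile normalization, 363 with equal medians and 489 with a fixed sum without Rmrp. Without Med23KO replicate 3 there were 395 lower and 749 higher, and without any 1 of the other 5 libraries 10 to 46 lower and 3 to 47 higher. The 2 lower calls among the other pathway genes became 0 with no filter, 1 after quantile normalization, with a fixed sum without Rmrp or without the mean-variance trend, 7 with library weights, 8 with the authors' q-values, 4 without Med23KO replicate 3 and 0 without any 1 of the other 5 libraries. Their rises were 1 with the authors' q-values, 1 without Med23KO replicate 3 and 0 without any 1 of the others. With the replicate number as a block, 8 of the 10 genes (Psat1, Mthfd1 and Mthfd1l added, with limma adjusted p of 0.00781, 0.00718 and 0.0103), 10 other pathway genes lower and 1 higher, and 1577 lower and 1180 higher genes overall were called. Same-numbered libraries deviated together for numbers 1 and 3 (r of 0.44 and 0.56 over 12336 genes, which are not independent), and for number 2 r was -0.02. Ctrl replicate 2 was near 0 with Med23KO replicates 1 and 3 as well (r of -0.04 and 0.04). Its value therefore cannot decide whether the numbers are pairs. The labels name no shared animal or batch, so the main fit left the numbers out. Uncalled values near 0 changed sign without 1 library, at -0.05, -0.03 and -0.02 for Mki67 (range -0.05 to 0.08; -0.00 from the authors' group values) and at -0.14, -0.12 and -0.03 for Pax7 (range -0.14 to 0.31). The cause of these changes was not tested. Depth per library is unknown, each group has 3 libraries, and the limits that these set on detection were not compared.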
